A study of Mus musculus with 8 samples.

Results

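The transcripts described here encode the mitochondrial chaperones, proteases, inner membrane scaffolds, fusion and fission factors and mitophagy proteins of mouse skeletal muscle. Members were the rows of the expression table whose gene symbol equalled one of 35 listed symbols. The table held 33 of them among 23930 genes, and all 33 had at least 1 RPM (reads per 1000000 reads of a library) in at least 4 libraries and so were tested among 11087 genes. Hspd1 and Phb are not analysed here.

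The RNA was that of the tibialis anterior, the muscle at the front of the shin, in mice with an inducible Cre recombinase under the HSA (human skeletal actin) promoter, which is active in skeletal muscle fibres. The 4 KO libraries came from HSA-Cre/Lox-SDHC mice, in which the recombinase deletes Sdhc, which encodes one of the subunits that hold succinate dehydrogenase (complex II) in the inner membrane. The 4 WT libraries came from HSA-Cre/No Lox littermates, so both groups carried the recombinase and both received tamoxifen at 12 weeks of age, with muscle taken 20 weeks later. The labels give the strain as C57BL/6 for WT and as C57BL/7 or C57BL/8 for KO, whereas the growth protocol gives C57/B6. A difference in strain between the groups is therefore not established. The labels do not tie libraries to single animals. Cells without the recombinase, such as endothelial cells, keep Sdhc in this design, and in whole muscle fewer cells of a type and less RNA per cell cannot be told apart.

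Mitochondrial proteins that are imported unfolded are folded by the matrix chaperones of the Hsp70, Hsp60 and Hsp90 families, and damaged ones are degraded by ATP-dependent proteases of the LON, CLP and AAA families. Mitofusins join outer membranes and OPA1 joins inner membranes, whereas the dynamin DRP1, encoded by Dnm1l, divides the organelle after binding adaptors on its surface. Mitochondria that stay damaged can be marked by the kinase PINK1 and removed by autophagy, and skeletal muscle depends on these steps to keep its dense network of mitochondria.

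Library depth ran from 4.77 to 7.28 M reads (M, 1000000), and 3 reads, used as the floor of detection, corresponded to between 0.412 and 0.628 RPM. Sdhc ran from 574 to 795 RPM in WT and from 14.5 to 49.4 RPM in KO, where its mean was 3.73% of the WT mean (two-sided exact permutation test, p = 0.0286 with n = 4 in each group, the smallest p this design can give). The highest KO value was that of KO 4. KO 4 and WT 1 were also the libraries with Xist, the RNA that coats an inactive X chromosome, at 98.9 and 77.3 RPM against at most 0.334 RPM in the other 6. The 8 muscle fibre markers summed to 108934 to 160073 RPM in WT and 89105 to 133116 RPM in KO, with overlap. Of these 8 genes 7 had negative log2 fold changes, with a median of -0.19 (-0.32 with TMM factors, where all 8 were negative), and 0 passed in limma. Endothelial markers summed to 342 to 496 RPM in WT and 512 to 694 RPM in KO, without overlap. Their 8 genes all had positive log2 fold changes, with a median of 0.48 (0.35 with TMM factors), and 0 passed in limma with all libraries. In 3 of the 8 (37.5%) KO lay above WT without overlap, against 7.5% of all genes. Of 6 adipocyte markers 3 were high enough to be tested. The sum of all 6 was 173 to 244 RPM in WT and 296 to 355 RPM in KO, but most of it was Fabp4, which passed (log2 fold change 0.65) though not with TMM factors (adjusted p = 0.0729). Cidec (-0.14) and Cfd (0.20) did not pass, and Adipoq and Plin1 were under 2 RPM in every library. The sums of fibroblast, tendon, macrophage, satellite cell and Schwann cell markers overlapped between the groups. All 6 tendon genes had negative log2 fold changes, with a median of -0.45 (-0.58 with TMM factors), and 1 of them, Scx, passed as lower in KO. Of 6 macrophage genes tested 4 were positive and 2 negative, and 1, Cd68, passed as higher in KO.

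Among the 33 members, Ghitm rose in KO and no other member passed the test. The test was limma on log2(RPM + 1), two-sided, with Benjamini-Hochberg adjustment over all genes tested and a threshold of 0.05. The 1 call is 3.03% of the members, where 89 of all 11087 genes passed, or 0.803% (0.523% higher and 0.28% lower in KO). At an unadjusted p under 0.05 there were 6 members, all higher in KO, or 18.2%, against 16.1% of all genes, of which 13.1% were higher and 3.07% lower. In 3 members (9.09%) all 4 KO libraries lay above all 4 WT libraries, against 7.5% of all genes, and in 0 members did they lie below, against 1.61%. The shares at an unadjusted p and without overlap were thus close to those of the table as a whole.

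The median log2 fold change of the members was 0.12, and that of all genes tested was 0.13. Positive values were found in 26 of 33 members (78.8%) and in 70% of all genes, and 16 members lay above the median of all genes, as 50% of all genes do. After scaling with TMM factors, which assume that most genes do not change, the median of all genes moved to 0.006 and that of the members to -0.009. On that scale 16 members were higher and 17 lower in KO, or 48.5% higher against 51.2% of all genes. In limma 0 members then passed (0.938% of all genes did) and 3 had an unadjusted p under 0.05, or 9.09% against 13.3% of all genes. A positive value of a member on the deposited scale therefore has to be read against the shift of 0.13 that all genes share. Fold changes below are log2 values of KO over WT on the deposited scale, with limma's SE, and TMM values are named as such.

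**Figure D1:**
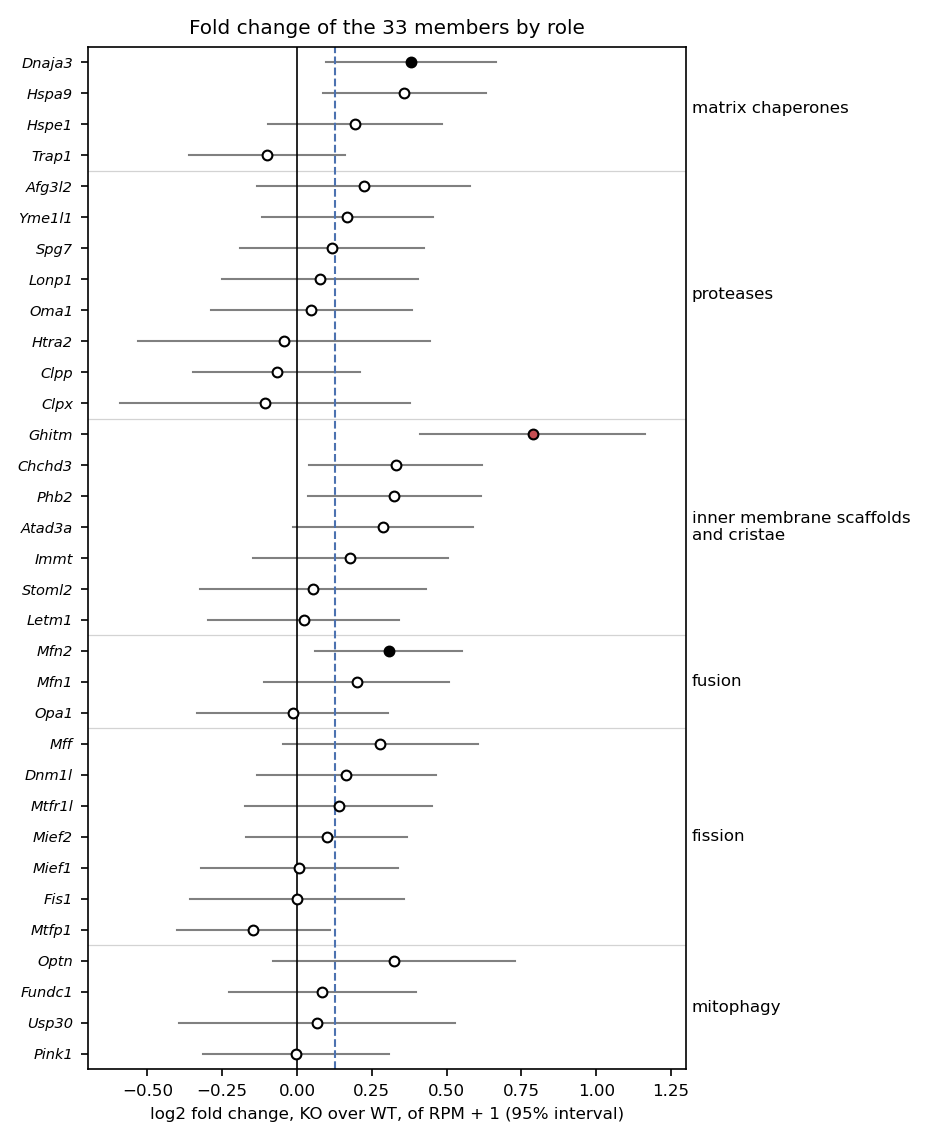
Log2 fold change of RPM + 1 (KO over WT, x axis) with its 95% limma interval for the 33 tested members, grouped by role (y axis). The filled red point passed the test (Ghitm, 0.79), black points had groups without overlap (Dnaja3, 0.38, and Mfn2, 0.31), and the dashed line marks the median of all genes (0.13), around which most other members lie.

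Ghitm encodes an inner membrane protein of the BAX inhibitor family, also called MICS1 or TMBIM5, that is needed for normal cristae and has been linked to calcium and proton exchange. Its level was 127, 156, 124 and 155 RPM in WT 1 to WT 4 and 237, 307, 291 and 162 RPM in KO 1 to KO 4. All KO libraries lay above all WT libraries, but KO 4 stood far below the other KO libraries and close to the highest WT values. The mean rose from 141 ± 17.4 to 249 ± 65.2 RPM (mean ± SD, n = 4 each), a ratio of 1.77. The log2 fold change was 0.79 (SE 0.18, 95% interval 0.41 to 1.16, limma adjusted p = 0.0494), which ranked Ghitm 88 among all genes by p. Between 868 and 1628 reads per library stood behind these values. In GRCm38 the gene occupies bases 37120092 to 37135272 of chromosome 14, read from the minus strand, and no other annotated gene overlaps it.

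The call of Ghitm lay at the threshold. Its log2 fold change was positive in all 20 alternatives, from 0.64 to 0.98, but it passed in 6 of them. Over the 20 its adjusted p ran from 0.0015 to 0.388. With TMM factors it was 0.66 (adjusted p = 0.081) and the groups overlapped, with KO 4 at 156 and WT 2 at 160 TMM-scaled RPM. On whole reads recovered from the RPM values, edgeR gave an adjusted p of 0.0656 and DESeq2 0.0093, where 0.83% and 2.16% of all genes passed. The adjusted p was 0.0024 without KO 4, and between 0.0609 and 0.178 without any other single library. With a term for the libraries with Xist the adjusted p was 0.0078, where 2.12% of all genes passed. Without both of those libraries it was 0.0015, with a log2 fold change of 0.93, where 3.63% of all genes passed.

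The sum of the endothelial markers was also higher in KO, at 628, 568, 694 and 512 RPM in KO 1 to KO 4. None of the 8 passed singly in limma with all libraries. Without the 2 libraries with Xist, Cdh5 and Esam passed (limma adjusted p = 0.0253 and 0.0437), where 3.63% of all genes passed. In that setting 6 of the 8 (75%) lay above WT without overlap, against 18.1% of all genes. Ghitm was highest in KO 2 and lowest in KO 4, whereas the endothelial sum was highest in KO 3 and lowest in KO 4. The part of these cells in the rise of Ghitm was not tested. Transcripts of general mitochondrial proteins were read beside it. Of 12 listed, 9 were tested, and they included the matrix enzyme Cs and the pore protein Vdac1. None of the 9 passed in limma or in edgeR, and in limma 0 of them were under an unadjusted p of 0.05. Their median log2 fold change was 0.09, with values from -0.16 to 0.24, all below that of Ghitm. These are RNA levels, the amount of mitochondria was not measured, and its part in the rise of Ghitm was not tested.

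**Figure D2:**
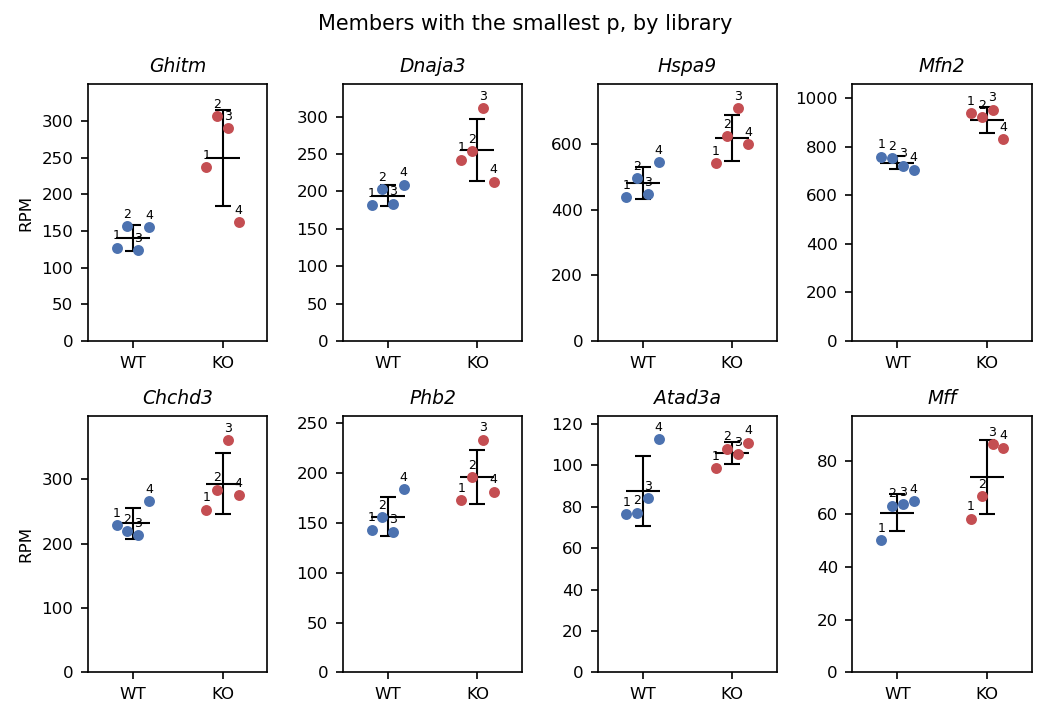
Level of the 8 members with the smallest p (y axis, RPM) in each library of WT and KO (x axis, points numbered by replicate), with the mean and SD in black. Ghitm, Dnaja3 and Mfn2 have no overlap between groups, and in these 3 genes KO 4 is the lowest KO library.

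Of the matrix chaperones, 4 of 5 listed members were tested, 0 passed, and 2 had an unadjusted p under 0.05. Dnaja3 encodes the J-domain partner (Tid1) that activates mitochondrial Hsp70. It stood at 182, 203, 184 and 209 RPM in WT and at 242, 254, 311 and 213 RPM in KO. The groups were apart by 4 RPM between WT 4 and KO 4, and the log2 fold change was 0.38 (SE 0.13, limma adjusted p = 0.187). With TMM factors the groups overlapped and the value was 0.25. Dnaja3 lies on chromosome 16 from 4639989 to 4707695 on the plus strand, where the annotation also places Vasn on that strand and Coro7 on the other.

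Hspa9 encodes mitochondrial Hsp70 (mortalin), the motor that draws proteins into the matrix and folds them. Its libraries held 439, 497, 449 and 545 RPM in WT and 542, 625, 710.5 and 601 RPM in KO. KO 1 lay just under WT 4, so the groups overlapped, and the log2 fold change of 0.36 did not pass (SE 0.13, adjusted p = 0.193). With TMM factors the order changed. The 4 KO libraries then stood at 554 to 624 and the WT libraries at 464 to 543 TMM-scaled RPM, without overlap, with a log2 fold change of 0.23 (adjusted p = 0.389). Hspa9 was the 1 member higher without overlap on that scale (3.03%, against 3.55% of all genes).

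The remaining chaperones moved less. Hspe1, the small lid of the Hsp60 folding chamber, averaged 268 ± 39.9 RPM in KO against 233 ± 28.6 RPM in WT (log2 fold change 0.19, adjusted p = 0.497). Trap1, the mitochondrial Hsp90, which is known to bind succinate dehydrogenase, averaged 177 ± 15.4 RPM in KO against 189 ± 16.3 RPM in WT (-0.10, adjusted p = 0.718). The 95% interval of Trap1 ran from -0.36 to 0.16. Because Hspa9 and Dnaja3 act as partners, their ratio was taken within each library, which removes the scaling. The mean log2 ratio of Hspa9 to Dnaja3 was 1.28 ± 0.15 in KO and 1.3 ± 0.05 in WT (exact two-sided permutation p = 0.886).

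None of the 8 proteases passed in limma or edgeR, and 0 had an unadjusted p under 0.05 in limma. Their log2 fold changes ran from -0.11 to 0.22 with a median of 0.06, and 2 of 8 lay above the median of all genes. The 2 with the smallest p were AAA proteases of the inner membrane. Afg3l2, a subunit of the m-AAA protease on the matrix side, stood at 77.3, 54.4, 48.6 and 42.3 RPM in WT and 70.0, 58.9, 59.1 and 66.6 RPM in KO. The highest library of all was WT 1, and the groups overlapped (0.22, SE 0.17, adjusted p = 0.524). Without the 2 libraries with Xist, KO lay above WT without overlap (adjusted p = 0.211), as did 18.1% of all genes, while 6.33% lay below.

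Yme1l1, the i-AAA protease that faces the intermembrane space and cleaves OPA1, stood at 59.9, 62.8, 60.2 and 63.6 RPM in WT and 63.3, 75.4, 81.2 and 59.7 RPM in KO. KO 2 and KO 3 lay above all WT libraries, while KO 4 was the lowest of the 8 (0.17, adjusted p = 0.552). Oma1, the protease that cleaves OPA1 under stress, was low and averaged 14 ± 2.15 RPM in KO against 13.4 ± 0.88 RPM in WT (0.05, adjusted p = 0.908). Lonp1, the main protease for oxidised matrix proteins, stood at 180 ± 22.1 and 172 ± 33.7 RPM (0.08, adjusted p = 0.844).

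Clpp, the peptidase of the CLP complex, averaged 83.6 ± 8.38 RPM in KO against 87.6 ± 8.80 RPM in WT, and its unfoldase Clpx at 7.15 ± 1.81 and 7.95 ± 2.85 RPM. Spg7, the other m-AAA subunit, stood at 73.8 ± 13.8 and 67.4 ± 6.72 RPM, and Htra2, a serine protease of the intermembrane space, at 23.4 ± 9.24 and 23.0 ± 3.74 RPM. Adjusted p of these 4 lay between 0.721 and 0.944. The mean ratio of Clpp to Clpx and that of Afg3l2 to Spg7 overlapped between the groups (exact permutation p = 0.943 and 0.629).

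Among the inner membrane scaffolds, all 7 tested members had positive log2 fold changes, 5 of them above the median of all genes, and Ghitm passed. With TMM factors 5 of 7 stayed positive, while Stoml2 and Letm1 turned to -0.08 and -0.11. Chchd3, a subunit (MIC19) of the MICOS complex that holds cristae junctions, stood at 228, 219, 213 and 266 RPM in WT and 253, 284, 361 and 275 RPM in KO. KO 1 lay under WT 4 and KO 3 above all others (0.33, SE 0.14, adjusted p = 0.253). Phb2, whose product forms the prohibitin ring with that of Phb, averaged 196 ± 26.8 RPM in KO against 156 ± 19.6 RPM in WT (0.32, SE 0.14, adjusted p = 0.26).

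Atad3a, an AAA protein that spans the inner membrane near the nucleoids, stood at 106 ± 5.22 and 87.6 ± 17.0 RPM (0.29, adjusted p = 0.328). Immt, the core MICOS subunit MIC60, stood at 293 ± 66.1 and 256 ± 33.6 RPM (0.18, adjusted p = 0.586). Stoml2, which binds prohibitins and cardiolipin, and Letm1, an ion exchanger of the inner membrane, had log2 fold changes of 0.05 and 0.02. Within libraries the log2 ratio of Immt to Chchd3 was -0.01 ± 0.12 in KO and 0.14 ± 0.06 in WT. It was lower in KO 1, KO 2 and KO 4 than in any WT library, whereas KO 3 lay among the WT values (exact two-sided permutation p = 0.0857, adjusted p = 0.857 over 10 pairs).

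Of the 3 fusion genes 0 passed, and Mfn2 was higher in every KO library than in any WT library. Mfn2 encodes mitofusin 2, which joins outer membranes and also tethers mitochondria to the endoplasmic reticulum. Its WT libraries held 760.2, 753, 722 and 706 RPM and its KO libraries 938, 922, 953 and 831 RPM. The gap between the groups was wider than the range within WT but narrower than the range within KO. The change was small and did not pass (0.31, SE 0.12, limma adjusted p = 0.209). With TMM factors KO 4 (799) fell below WT 1 (802) and WT 3 (805), and the value was 0.18 (adjusted p = 0.556). Mfn2 occupies bases 147873599 to 147904704 of chromosome 4, read from the minus strand, and Gm13156 overlaps it on the other strand.

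Mfn1, the other mitofusin, stood at 236, 199, 243 and 326 RPM in WT and 257, 291, 298 and 291 RPM in KO. WT 4 was the highest of the 8 libraries and WT 2 the lowest, so the groups overlapped (0.20, adjusted p = 0.51). Opa1, the inner membrane fusion GTPase, averaged 147 ± 24.2 RPM in KO against 149 ± 23.4 RPM in WT (-0.01, 95% interval -0.33 to 0.30, adjusted p = 0.973). The panel measures 1 segment of Opa1 and does not show which of its splice forms or cleaved proteins were present. The log2 ratio of Opa1 to the fission dynamin Dnm1l was 1.49 ± 0.35 in KO and 1.67 ± 0.24 in WT (exact permutation p = 0.429).

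None of the 7 fission genes passed in limma or edgeR, and 0 had an unadjusted p under 0.05 in limma. Mff, an outer membrane adaptor that recruits DRP1, stood at 49.9, 63.1, 63.6 and 64.8 RPM in WT and 58.2, 66.6, 86.4 and 85.0 RPM in KO. KO 2 to KO 4 lay above all WT libraries and KO 1 below 3 of them (0.28, SE 0.15, adjusted p = 0.383). Mtfp1, an inner membrane protein (MTP18) that promotes fission, had the most negative log2 fold change of the 33 members. It stood at 168, 191, 185 and 206 RPM in WT and 164, 159, 169 and 184 RPM in KO, with WT 1 among the KO values (-0.15, SE 0.12, adjusted p = 0.567). With TMM factors the groups separated, at 178 to 206 in WT and 148 to 177 in KO, and the value was -0.28 (adjusted p = 0.286). Mtfp1 was then the 1 member lower without overlap, where 3.69% of all genes were.

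Dnm1l itself averaged 51.8 ± 7.93 RPM in KO against 45.8 ± 3.34 RPM in WT (0.17, adjusted p = 0.58). The DRP1 adaptors Mief1 and Mief2 had log2 fold changes of 0.01 and 0.10, Fis1, an outer membrane protein that can bind DRP1, had 0, and Mtfr1l, a regulator of fission, had 0.14. Adjusted p of these 4 ran from 0.667 to 0.9998. The ratios Fis1 to Mff and Mief1 to Mief2 overlapped between the groups (exact permutation p = 0.429 and 0.6). Of the 12 pairs listed, 10 could be computed, and their exact p ran from 0.0857 to 0.943.

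None of the 4 mitophagy members passed in limma or edgeR, and 0 had an unadjusted p under 0.05 in limma. Optn encodes optineurin, a receptor that links ubiquitinated mitochondria to the autophagosome. It stood at 84.3, 153, 149 and 185 RPM in WT and 162, 153, 192 and 185 RPM in KO. WT 1 stood apart below the rest, and the other 7 libraries overlapped (0.32, SE 0.19, adjusted p = 0.411). Without WT 1 and KO 4 the log2 fold change of Optn was 0.06 (adjusted p = 0.867).

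Fundc1, an X-linked outer membrane receptor of mitophagy, stood at 108, 95.7, 78.8 and 80.8 RPM in WT and 82.8, 85.2, 115 and 103 RPM in KO, with the groups mixed (0.08, adjusted p = 0.814). Pink1 averaged 686 ± 55.6 RPM in KO against 697 ± 147 RPM in WT, with WT 1 highest at 905 RPM (0.00, 95% interval -0.31 to 0.31, adjusted p = 0.994). Usp30, a deubiquitinase of the outer membrane that opposes mitophagy, was near the limit of the assay at 1.58 ± 0.63 and 1.42 ± 0.17 RPM, or 7 to 12 reads per library, and its fold change is poorly measured.

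**Figure D3:**
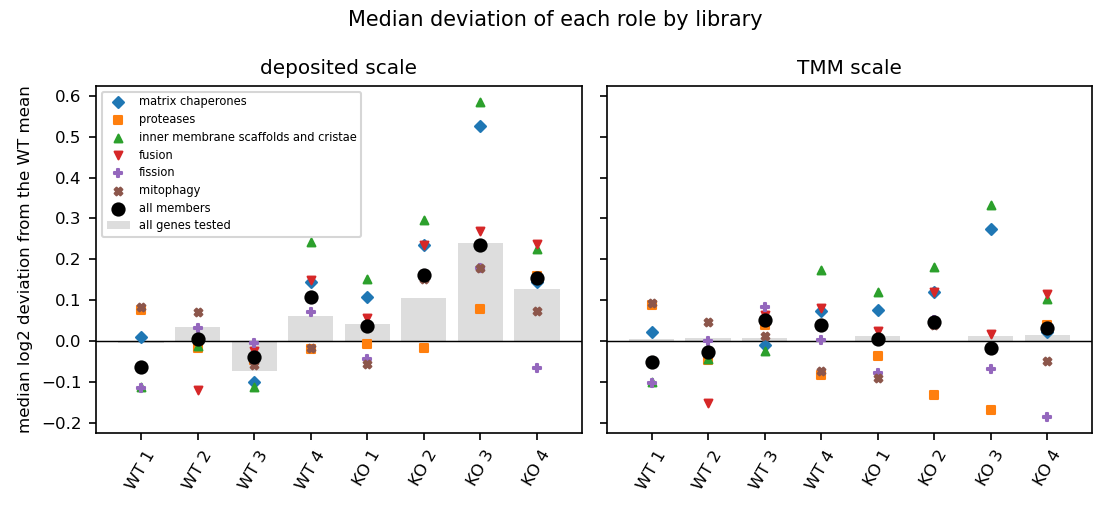
Median log2 deviation from the WT mean (y axis) in each library (x axis) for the members of each role, all members (black circles) and all genes tested (grey bars), on the deposited scale (left) and the TMM scale (right). On the deposited scale the median of all members in KO 3 (0.23) follows that of all genes (0.24). On the TMM scale the medians of all members together run from -0.052 (WT 1) to 0.051 (WT 3). Those of single roles spread more widely, from -0.19 (fission, KO 4) to 0.33 (inner membrane scaffolds, KO 3).

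In KO 1 and KO 3 the members' medians lay within 0.01 of those of the whole table. On the deposited scale the median deviation from the WT mean was 0.04, 0.16, 0.23 and 0.15 for the members in KO 1 to KO 4 and 0.04, 0.10, 0.24 and 0.13 for all genes. In WT 1 to WT 4 it was -0.06, 0.00, -0.04 and 0.11 for the members and -0.01, 0.04, -0.07 and 0.06 for all genes. The lowest WT library was thus WT 1 for the members and WT 3 for all genes. The TMM factor of WT 3 (0.898) was the lowest and that of KO 3 (1.14) the highest. On the TMM scale the members' medians in KO were 0.00, 0.05, -0.02 and 0.03.

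The promoter sequence of the 3 members whose groups did not overlap is shown because these members were higher in all 4 KO libraries. Each run is the 250 bases before the most upstream RefSeq start (GRCm38.p6), 5′ to 3′ on the strand of the gene. Capitals mark matches on either strand to 6 motifs: the hypoxia response element core ACGTG, the estrogen-related receptor half-site AAGGTCA, the NRF1 site, the CHOP-ATF4 composite site TGATGNAA, the heat shock element pair GAANNTTC and the cAMP response element half-site TGACG, which was added after the promoters had been read. ACGTG and TGACG can overlap in TGACGTG. Of the hypoxia core only the letters ACGTG were searched, so GCGTG is neither marked nor counted. Ghitm lies at chr14:37135323-37135572 (minus strand), Mfn2 at chr4:147904910-147905159 (minus strand) and Dnaja3 at chr16:4683820-4684069 (plus strand). The Dnaja3 window ends just before its coding transcripts, of which the first starts at base 4684070. It lies inside the gene span given above because that span begins with a longer non-coding transcript. The Ghitm and Mfn2 windows do not adjoin the gene spans given above. On the minus strand those spans begin at bases 37135272 and 147904704, downstream of the RefSeq starts used. Distances to matches are counted from the RefSeq starts.
Ghitm: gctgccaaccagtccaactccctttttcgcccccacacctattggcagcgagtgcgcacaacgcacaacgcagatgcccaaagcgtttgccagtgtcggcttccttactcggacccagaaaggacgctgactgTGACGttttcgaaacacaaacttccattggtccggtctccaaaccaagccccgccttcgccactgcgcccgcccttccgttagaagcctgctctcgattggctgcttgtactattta
Mfn2: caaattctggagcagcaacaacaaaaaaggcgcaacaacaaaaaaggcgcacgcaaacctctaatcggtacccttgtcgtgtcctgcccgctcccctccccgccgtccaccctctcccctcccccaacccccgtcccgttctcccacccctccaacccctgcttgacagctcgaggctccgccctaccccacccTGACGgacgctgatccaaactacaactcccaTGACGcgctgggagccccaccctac
Dnaja3: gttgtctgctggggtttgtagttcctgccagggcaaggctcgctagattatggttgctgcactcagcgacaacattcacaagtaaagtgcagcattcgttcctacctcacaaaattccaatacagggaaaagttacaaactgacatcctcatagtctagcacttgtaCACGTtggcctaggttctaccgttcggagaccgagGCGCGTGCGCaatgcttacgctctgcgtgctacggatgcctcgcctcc

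The window of Ghitm held 1 match, the half-site TGACG, 117 bases before the start. That of Mfn2 held 2, both TGACG, at 56 and 25 bases before the start. That of Dnaja3 held the hypoxia core in reverse at 83 bases and an NRF1 site at 48 bases. Of the 33 members, 29 had a promoter in the RefSeq table. TGACG was found in 10 of the 29 (34.5%), Ghitm and Mfn2 among them, and in 17.8% of all 27025 windows of that length. Because this motif was added after the promoters had been read, its share among the members is partly set by that choice. The NRF1 site was in 5 members (17.2%) and 3.87% of all windows, the hypoxia core in 6 (20.7%) and 16.5%, and both the heat shock pair and the ERR half-site in 2 (6.9%) against 6.79% and 4.04%. The CHOP-ATF4 letters were in none of the 29 windows and in 3.53% of all. A match describes letters in a window and not a bound factor.

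Other genes of mitochondrial quality control were taken from a second list of 76, of which 62 were tested. In limma 0 of the 62 passed, against 0.803% of all genes, with 13 higher and 2 lower at an unadjusted p under 0.05. That is 24.2% of the 62, against 16.1% of all genes (13.1% higher and 3.07% lower). With TMM factors 6 were higher and 2 lower at that threshold, or 12.9% of the 62 against 13.3% of all genes. In edgeR 1 passed and in DESeq2 2, where 0.83% and 2.16% of all genes did. Their median log2 fold change was 0.08, against 0.12 for the members and 0.13 for all genes. In 4 genes KO lay above WT without overlap (7.5% of all genes did) and in 1 below (1.61%).

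Mul1, an outer membrane ubiquitin ligase that acts on MFN2, stood closest to the threshold. It held 64.6, 73.5, 61.2 and 68.8 RPM in WT and 105, 115, 119.6 and 78.7 RPM in KO. As with Ghitm and Mfn2, KO 4 was the lowest KO library and still above WT (log2 fold change 0.62, SE 0.15, adjusted p = 0.0575). It passed with the Xist term (adjusted p = 0.0239), without the 2 libraries with Xist (0.0079) and in DESeq2 (0.0376), but not in edgeR (0.1). In these settings 2.12%, 3.63%, 2.16% and 0.83% of all genes passed.

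Map1lc3a, an LC3 protein of the autophagosome membrane, was the gene of this list lower in every KO library. Its WT libraries held 151, 132, 117 and 121 RPM and its KO libraries 93.0, 87.1, 90.1 and 102 RPM. The log2 fold change was -0.47 (SE 0.13, limma adjusted p = 0.0879). It passed with TMM factors (-0.60, adjusted p = 0.0312), in edgeR (0.0363) and in DESeq2 (0.0015).

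Tbk1, the kinase that phosphorylates optineurin, held 28.5, 36.1, 35.6 and 44.0 RPM in WT and 46.5, 47.3, 62.8 and 52.7 RPM in KO, and averaged 52.3 ± 7.51 RPM in KO against 36.1 ± 6.36 RPM in WT, without overlap (0.53, adjusted p = 0.12). Nbr1, a receptor of selective autophagy, stood at 88.4 ± 17.0 and 62.8 ± 3 RPM (0.47, adjusted p = 0.145). The import motor gene Dnajc19 stood at 708 ± 41.9 and 549 ± 65.2 RPM (0.37, adjusted p = 0.168), and the groups of both genes did not overlap. The mitophagy receptor Bnip3 stood at 75.4 ± 7.35 and 55.9 ± 12.0 RPM (0.45, adjusted p = 0.194).

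Of the transcription factors linked to mitochondrial protein stress, Atf5 averaged 19.0 ± 4.6 RPM in KO against 11.8 ± 5.02 RPM in WT, with overlap (0.69, adjusted p = 0.187). Without the 2 libraries with Xist it passed (1.10, adjusted p = 0.0052). Ddit3, which encodes CHOP and is named here after its values were seen, had the highest log2 fold change of the second list. It held 30.2, 30.7, 28.9 and 40.0 RPM in WT and 46.0, 54.7, 92.3 and 36.7 RPM in KO, with KO 4 below WT 4 (0.73, adjusted p = 0.127). It too passed without the 2 libraries with Xist, of which KO 4 is 1 (0.88, adjusted p = 0.0246). In that setting 3.63% of all genes passed, against 0.803% with all libraries. The 8 regulators tested had a median log2 fold change of 0.06 (-0.07 with TMM factors), and 0 of them passed in limma with all libraries. Atf4 stood at 311 ± 33.7 and 336 ± 40.0 RPM (-0.11, adjusted p = 0.711). The ubiquitin ligase parkin, listed under its older symbol Park2, stood at 15.7 ± 3.81 and 13.9 ± 1.23 RPM (0.14, adjusted p = 0.718). The rhomboid protease Parl and the MICOS subunit Chchd6 had log2 fold changes of 0.05 and -0.08.

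**Figure D4:**
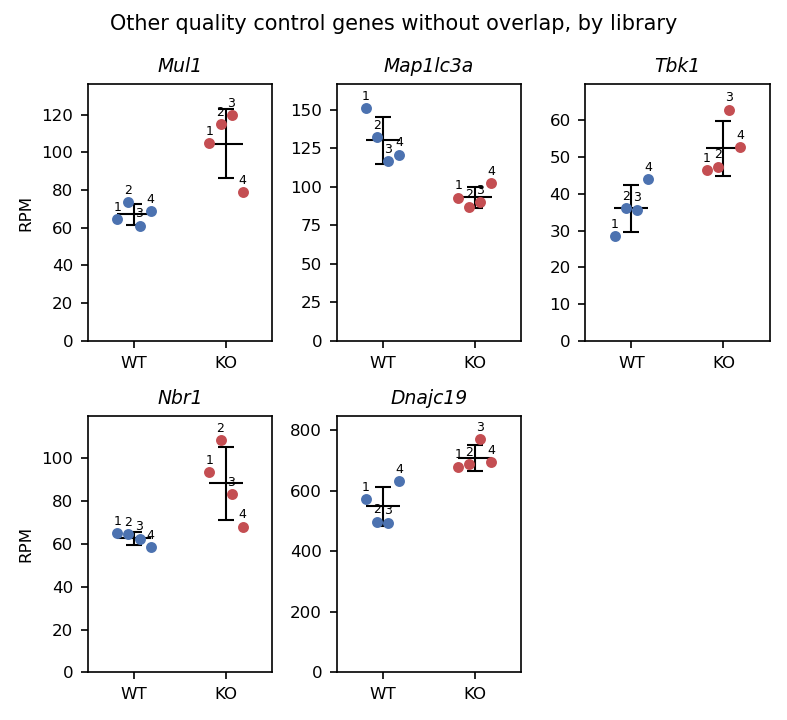
Level (y axis, RPM) of the 5 other genes of mitochondrial quality control whose groups did not overlap, in each library of WT and KO (x axis, points numbered by replicate), with the mean and SD in black. Map1lc3a is lower in KO and the other 4 are higher, and KO 4 is the lowest KO library for Mul1 and Nbr1.

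**Figure D5:**
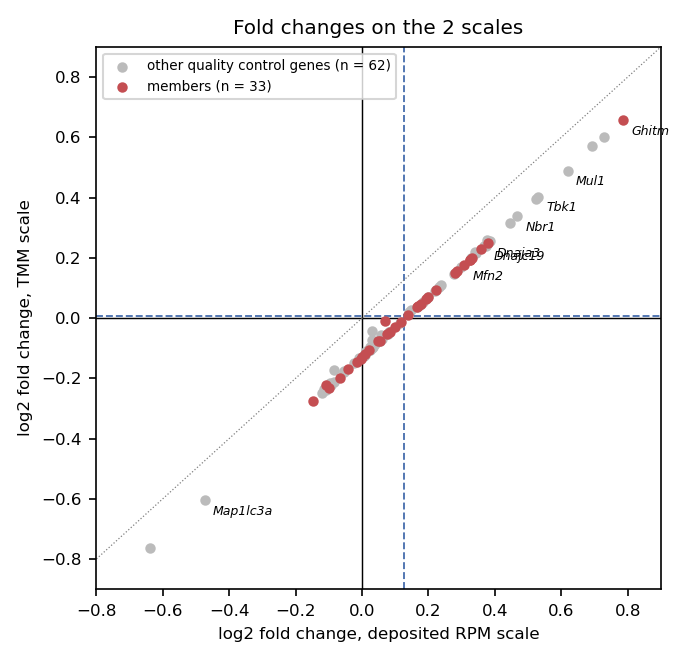
Log2 fold change (KO over WT) on the TMM scale (y axis) against that on the deposited RPM scale (x axis) for the 33 members (red) and 62 other genes (grey), with dashed lines at the medians of all genes and a dotted line of equality. All points lie below the line of equality, Ghitm is the highest member at 0.66 on the TMM scale, and 16 of the 33 members are above 0 on that scale.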

How the data were processed

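Total RNA was amplified with the Ion AmpliSeq Transcriptome Mouse panel, per the labels, which reads 1 short segment per gene and cannot separate isoforms. The authors deposited RPM values, in 1 table of 23930 genes and 8 libraries; the Transcriptome Analysis Console is the 1 tool in the submitters' processing notes, while aligner, genome build and strand use are not stated there or in the labels. Library columns were matched to samples by barcode and grouped by title. Every value was a whole multiple of 1 read (100% to within 0.05 reads), and library totals came to 4.77 to 7.28 M reads. The floor of 3 reads covers counting error only, and the 95% intervals are from limma and reflect the spread between libraries. Between 29.5% and 41.7% of a library fell on its top 50 genes.

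The filter of 1 RPM in 4 libraries kept 11087 genes, whose log2(RPM + 1) values were fitted with limma 3.58.1 (R 4.3.3; variance trend; Benjamini-Hochberg), a scale that understates changes of low genes. Single values and ratios were tested by exact permutation over 70 assignments with scipy 1.17.1. Alternatives were pseudocounts of 0.5 and 5, no filter or 5 RPM, TMM factors, quantile normalization, a replicate block, an Xist term, omission of libraries, and edgeR 4.0.16 and DESeq2 1.42.0 on recovered reads. Chi-square per degree of freedom between libraries of a group was at least 8.73, so they differed by more than counting error. None was therefore treated as a repeat of another, and all 8 libraries were kept. This was not a check of library quality. Separate animals are not stated, so p-values measure the spread between libraries. The limma and edgeR steps were also run on simulated counts with known changes in some genes, and the outcome is not given here. The simulation held no shift shared by all genes, so it cannot show how the shift of 0.13 affects the calls. Locations came from GENCODE M21 and promoters from RefSeq, both on GRCm38.

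Members, lists and tests were chosen with earlier results of these data known, and the motif TGACG after the promoters were read. Libraries were described for members that passed, that did not overlap, or had the 2 smallest p in their role; of the second list, for genes without overlap and 6 listed genes. Figures were drawn with matplotlib 3.10.9.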

Additional observations from a re-analysis of the deposited data

Results flagged for a closer look

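In 5 of 90 groups of 4 libraries, 1 library lay far from the other 3 relative to the range of its group, where chance gives about 1 in 20 (4.5 of 90). Spg7 was highest in WT 1 at 77.4 RPM, against 63.3 to 65.1 RPM in WT 2 to WT 4. Mff was lowest in WT 1 at 49.9 RPM, against 63.1 to 64.8 RPM, and so was Mief2 at 180.1 RPM, against 204 to 208 RPM. WT 1 is 1 of the 2 libraries with Xist. Oma1 was highest in WT 4 at 14.7 RPM, against 12.8 to 13.1 RPM. Dnajc19 was highest in KO 3 at 769.9 RPM, against 679 to 695 RPM in KO 1, KO 2 and KO 4.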

How the results depend on the processing

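The log2 fold change of Ghitm was positive in all 20 alternatives, but 0 members passed with a pseudocount of 0.5 RPM, without a filter, with a filter of 5 RPM, with TMM factors, with quantile normalization, in edgeR, or without WT 3 and KO 3. Leaving out 1 library gave 0 to 1 members called (1 without KO 4) and 16 (without WT 3) to 270 (without KO 4) genes in all. The count over all genes was 59 without a filter, 235 with the Xist term, 403 without the 2 libraries with Xist, 9 without WT 3 and KO 3 and 240 in DESeq2, against 89. Of the other quality control genes, 1 passed with TMM factors and in edgeR (Map1lc3a), 1 with the Xist term (Mul1), 2 in DESeq2 (both), 5 without the libraries with Xist (Mul1, Gdap1, Nbr1, Atf5 and Ddit3) and 0 to 3 with 1 library left out. Members without overlap between groups numbered 6 without the libraries with Xist (5 higher and 1 lower, or 15.2% and 3.03%, against 18.1% and 6.33% of all genes) and 3 to 8 with 1 library left out, where 8.38% to 13.2% of all genes were higher and 1.80% to 3.98% lower without overlap. The median of the members was -0.009 with TMM factors, 0.019 with quantile normalization, -3.79e-06 in edgeR and -1.66e-04 in DESeq2. The Sdhc level in KO was 2.60% to 4.28% of that in WT with 1 library left out (exact permutation p = 0.0571, the smallest for 3 against 4). Deviations of same-numbered libraries correlated at -0.12 to 0.08 and of other pairs at -0.19 to 0.24, so the numbers do not pair the samples; a replicate block called 81 genes and 1 member (Ghitm, adjusted p = 0.0429).

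Changes of sign concerned genes and ratios that did not pass; the values given are log2 fold changes, or KO minus WT differences of log2 ratios. With TMM factors they were Lonp1 -0.054, Spg7 -0.012, Oma1 -0.075, Stoml2 -0.077, Letm1 -0.11, Fis1 -0.13, Mief1 -0.12, Mief2 -0.031, Fundc1 -0.045, Usp30 -0.0090, Parl -0.075. Without the 2 libraries with Xist they were Lonp1 -0.13, Stoml2 -0.13, Letm1 -0.039, Pink1 0.14. In edgeR they were Lonp1 -0.068, Spg7 -3.79e-06, Oma1 -0.075, Stoml2 -0.052, Letm1 -0.076, Fis1 -0.16, Mief1 -0.14, Mief2 -0.020, Fundc1 -0.051, Usp30 -0.011, Parl -0.077. In DESeq2 they were Lonp1 -0.069, Spg7 -1.66e-04, Oma1 -0.077, Stoml2 -0.054, Letm1 -0.077, Fis1 -0.16, Mief1 -0.14, Mief2 -0.021, Fundc1 -0.051, Usp30 -5.21e-04, Parl -0.078. With quantile normalization they were Oma1 -0.076, Stoml2 -0.029, Letm1 -0.081, Fis1 -0.11, Mief1 -0.10, Fundc1 -0.016, Usp30 -0.035, Parl -0.061. Without WT 3 and KO 3 they were Immt -0.027, Opa1 0.028, Pink1 0.024, Fundc1 -0.065. With a pseudocount of 5 RPM they were Fis1 -0.0019. With 1 library left out the ranges were ratio Clpp/Clpx -0.21 to 0.27, ratio Pink1/Usp30 -0.21 to 0.091, ratio Hspa9/Dnaja3 -0.091 to 0.020, ratio Mfn1/Mfn2 -0.22 to 0.045, ratio Mief1/Mief2 -0.20 to 0.076, Lonp1 -0.069 to 0.17, Clpx -0.28 to 0.084, Spg7 -0.0048 to 0.18, Oma1 -0.037 to 0.13, Htra2 -0.26 to 0.20, Stoml2 -0.082 to 0.23, Letm1 -0.075 to 0.15, Opa1 -0.10 to 0.079, Fis1 -0.096 to 0.16, Mief1 -0.086 to 0.11, Pink1 -0.10 to 0.13, Fundc1 -0.0024 to 0.17, Usp30 -0.090 to 0.15, Chchd6 -0.31 to 0.16. The cause was not tested. Depth limits Usp30 and Chchd6, with at most 12 and 29 reads in a library.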

Other observations

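KO 4 was the lowest KO library in 8 of the 33 members, Ghitm, Dnaja3 and Mfn2 among them, and KO 1 in 13, KO 2 in 8 and KO 3 in 4. Of the 62 other genes KO 4 was lowest in 20 and KO 1 in 23. KO 4 also had the most Sdhc left (49.4 RPM, against 14.5 to 22.8 RPM in KO 1 to KO 3) and was the KO library with Xist. With 1 such library, residual Sdhc, Xist and any other property of KO 4 cannot be told apart. WT 1, the other library with Xist, held 127 RPM of Ghitm and 760.2 RPM of Mfn2, the highest WT value of Mfn2.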
